A study of Mus musculus with 14 samples.

Results

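The nuclear genes that encode the subunits of the mitochondrial respiratory chain were followed in mouse liver across Lmna genotype and diet. Members were chosen by gene symbol alone: Nduf with a subunit letter and number for complex I, Sdha to Sdhd for complex II, Uqcr for complex III, Cox4 to Cox8 for complex IV and Atp5 for complex V, the ATP synthase. Only probe sets with 1 gene symbol were used, the probe set with the highest mean over the 14 arrays stood for its gene, and pseudogene symbols with -ps were dropped. This gave 78 of the 22180 genes tested, with 33 in complex I, 4 in complex II, 7 in complex III, 17 in complex IV and 17 in complex V. A further 8 matching symbols, Cox6c, Ndufb2, Ndufb4, Ndufb4b, Ndufb4c, Ndufs6, Ndufs6b and Uqcr10, were listed only by probe sets shared with other symbols and were not analysed here. Of the 78 members, 12 had a mean log2 value under 4 and are called dim here, among them all 8 tissue-restricted isoforms.

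The livers came from male C57BL/6 mice that all carried Alb-cre, which makes Cre recombinase under the albumin promoter and so acts in hepatocytes. The groups were LMNA +/+ mice on normal chow (called WT; arrays G1 and N1), mice with 1 floxed copy of LMNA on chow (HET; F1, F2 and P1), mice with 2 floxed copies on chow (KO; H1, H2 and I1), and HET mice (A2, B1 and B2) and KO mice (C2, C3 and C4) given a high fat diet, called HFD. HFD mice ate the Surwit diet for 14 weeks and drank water with 42 g/L of sugars, 55% fructose and 45% sucrose, and chow mice also spent 14 weeks on their diet. Ages were 24.6 to 27 weeks in WT, 24 to 26.4 weeks in HET on chow, 38.9 weeks in KO on chow, 30 to 30.4 weeks in HET on HFD and 35.3 weeks in KO on HFD. KO mice were therefore older than HET mice by 13.3 weeks on chow and 5.17 weeks on HFD, while HFD mice were 4.53 weeks older than chow mice in HET but 3.6 weeks younger in KO. Liver cells in which Cre did not act keep their Lmna, and which cells these were was not measured here. The single probe set of Lmna read 4.47 ± 0.05 (SD, n = 2) in WT, 4.31 ± 0.08 in HET and 3.85 ± 0.22 in KO on chow, and 4.15 ± 0.13 in HET and 3.99 ± 0.09 in KO on HFD (SD, n = 3 each), and the KO and HET ranges overlapped on HFD. All levels are on the log2 intensity scale; changes are differences between group means on that scale, given ± the standard error from limma. The small number of arrays, 2 or 3 in each group, limits the precision. Array signal depends on the probes, so levels of different genes are not compared.

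The respiratory chain passes electrons from NADH (complex I) and succinate (complex II) through coenzyme Q to complex III, through cytochrome c to complex IV and on to oxygen, and the ATP synthase uses the proton gradient so made. Most subunits are encoded in the nucleus and imported into mitochondria, and a few are encoded by mitochondrial DNA. The liver is rich in mitochondria, which there oxidize fatty acids and supply ATP for glucose and urea synthesis. Transcription of the nuclear subunit genes is known to depend on NRF1, on ETS-family factors such as GABP, on YY1 and on the coactivator PGC-1alpha.

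No subunit gene passed the test in any comparison, although in KO livers many other genes did. Called here means an adjusted p under 0.05 in limma, with the adjustment of Benjamini and Hochberg over all 22180 genes. On chow 0 of 78 members were called between KO and HET, where 1.92% of all genes were called, and 0 between KO and WT, where 1.65% were. On HFD 0 of 78 were called between KO and HET, against 7.56% of all genes, and averaged over both diets 0 of 78 against 9.43%. Between HET and WT 0 members and 0% of all genes were called. For diet the call rates over all genes were low, at 0.198% in HET, 0.316% in KO, 0.383% averaged over both genotypes and 0.0361% for the interaction of genotype and diet, and 0 of 78 members were called in each.

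At an unadjusted p under 0.05, the diet comparisons held a larger share of members on the lower side than of genes in general, and the comparisons of KO with HET a smaller one. For HFD against chow, 12 of 78 members were lower in HET and 0 higher, where 5.46% of all genes were lower and 4.78% higher. In KO livers 15 of 78 were lower and 2 higher, where 4.95% of all genes were lower and 6.12% higher. Averaged over the genotypes 28 of 78 were lower and 1 higher, against 5.97% and 5.59% of all genes. Between KO and HET on chow 2 of 78 were lower and 0 higher, against 5.8% and 7.58% of all genes. On HFD these were 2 and 0, against 8.82% and 11.7%, and averaged over diets 4 and 1, against 9.66% and 12.5%. Against WT the lower side was not short of members: 6 were lower and 0 higher in KO, where 4.77% of all genes were lower and 7% higher, and 2 and 0 in HET, where 2.09% and 2.21% were. Of 2540 genes with a mean of at least 8, 223 were lower and 205 higher in KO against WT. The share of members lower in KO was thus near that of bright genes. In HET against WT 26 of these genes were lower and 24 higher. For the interaction 2 were lower and 3 higher, against 4.6% and 5.26%. For KO against HET averaged over both diets, the 95% confidence interval of 75 of 78 members lay within 0.5 on the log2 scale (1.41-fold) of no change, and for all 78 within 1 (2-fold). For HFD against chow these counts were 56 and 78 in HET and 46 and 77 in KO, so changes of the size seen below were not resolved for single genes.

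**Figure D1:**
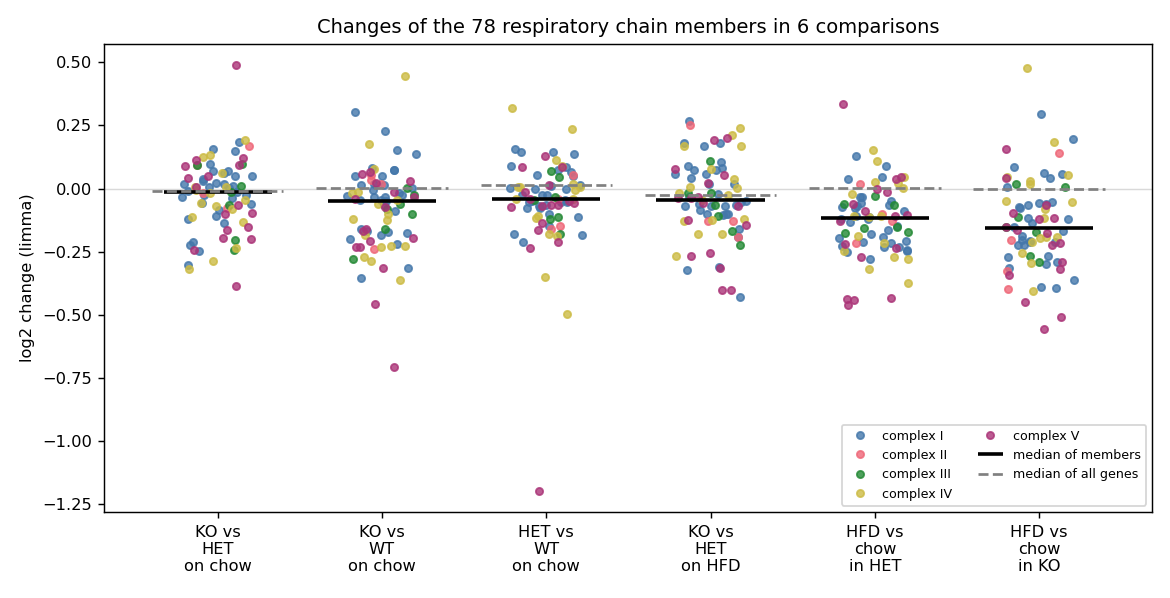
Log2 change of each of the 78 members (points, coloured by complex) in 6 comparisons of liver groups; black bars mark the median of the members and dashed bars the median of all 22180 genes. The member medians lie between -0.05 and -0.01 in the 4 genotype comparisons and further below 0 for HFD against chow, at -0.12 in HET and -0.16 in KO.

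The diet shift was small and broad. The median change of the members for HFD against chow was -0.12 in HET (7.78% lower), -0.16 in KO (10.4% lower) and -0.14 averaged (9.41% lower), while the median of all genes was 0.00 in each of the 3. Of 78 members, 64 lay below 0 in HET, 60 in KO and 65 in the average. The level of the members in an array was taken as the median, over members, of their deviation from the gene's own mean over the 14 arrays. That level was 0.13 and 0.08 in the WT arrays, 0.03, 0.05 and 0.09 in HET on chow and 0.08, 0.04 and 0.03 in KO on chow. On HFD it was -0.03, -0.08 and -0.05 in HET and -0.11, -0.10 and -0.11 in KO. All 6 HFD arrays thus lay below all 8 chow arrays, and the KO arrays on HFD lay lowest. As the members were examined with these values known, this order is given as a description. It was not particular to the members, as genes for ribosomal proteins, given below, also separated by diet.

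**Figure D2:**
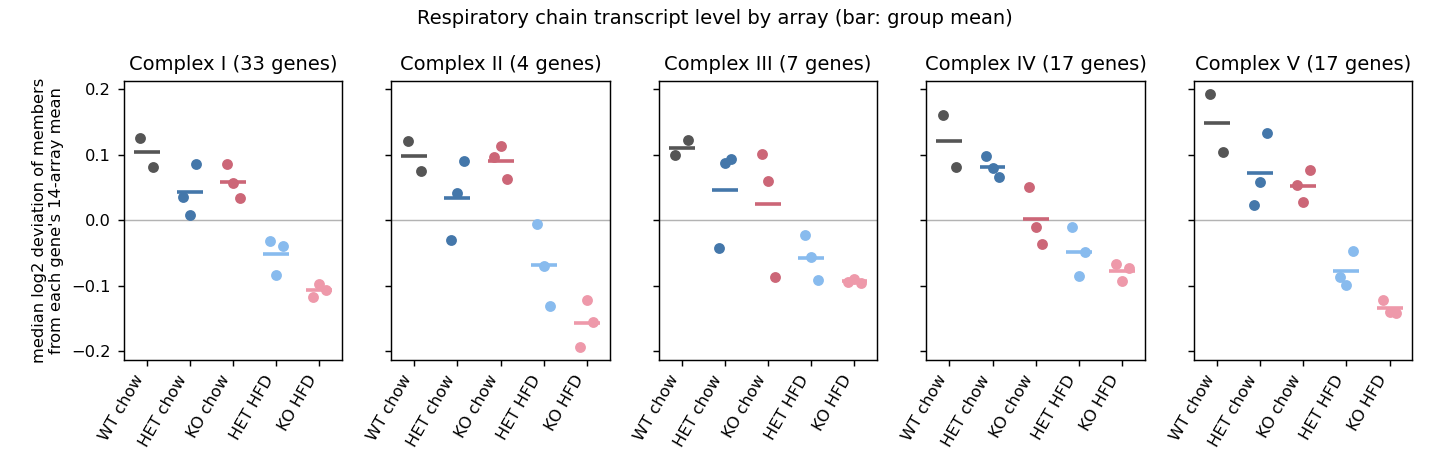
Level of each complex in each of the 14 arrays (points), as the median log2 deviation of its members from each gene's mean over all arrays, with a bar at each group mean; colours mark the 5 groups. In complexes I and V every HFD array lies below every chow array, while complexes II, III and IV have chow arrays that reach into the HFD range.

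In complex I, which takes electrons from NADH and is the largest complex, 29 of 33 members lay below 0 in HET on HFD (median -0.12) and 26 of 33 in KO (median -0.15). Ndufv2, a core subunit of the NADH-binding module, read 9.19 and 9.37 in WT, 9.12, 9.23 and 9.26 in HET and 9.20, 9.36 and 9.15 in KO on chow, and 9.01, 9.09 and 8.76 in HET and 8.98, 9.02 and 8.91 in KO on HFD. Every HFD array was below every chow array, and the diet change was -0.25 ± 0.11 in HET (limma adjusted p = 0.467) and -0.27 ± 0.11 in KO (adjusted p = 0.403). Ndufc2, an accessory subunit of the membrane arm, read 9.70 and 9.64 in WT, 9.66, 9.49 and 9.55 in HET and 9.62, 9.61 and 9.58 in KO on chow, and 9.45, 9.45 and 9.11 in HET and 9.40, 9.25 and 9.26 in KO on HFD, again without overlap between the diets. Ndufa1, a small membrane-arm subunit encoded on the X chromosome, read 8.78 and 8.79 in WT, 8.70, 8.59 and 8.93 in HET and 8.67, 8.61 and 8.57 in KO on chow, and 8.57, 8.52 and 8.50 in HET and 8.42, 8.49 and 8.37 in KO on HFD, where the diets were close but did not overlap. Ndufa4 carries a complex I symbol but its protein is now regarded as a subunit of complex IV. It read 10.93 and 10.91 in WT, 10.86, 10.86 and 11.09 in HET and 10.81, 10.86 and 11.02 in KO on chow, and 10.64, 10.63 and 10.79 in HET and 10.69, 10.78 and 10.76 in KO on HFD, and also separated by diet.

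The complex I members with the smallest p were mostly others. In HET the smallest was that of the core subunit Ndufs3 (-0.28 ± 0.11, limma adjusted p = 0.414), with overlapping groups. In KO it was that of Ndufb10, an accessory subunit of the membrane arm, at -0.39 ± 0.11 (adjusted p = 0.201). Ndufb10 read 6.90, 6.95 and 6.93 in KO on chow and 6.72, 6.39 and 6.51 in KO on HFD, and 6.96, 6.95 and 6.85 in HET on chow and 6.87, 6.77 and 6.94 in HET on HFD. Its values were lowest in the KO arrays on HFD, but the interaction was not called (-0.33 ± 0.16, adjusted p = 0.524). Averaged over genotypes the smallest p was that of Ndufb5, another membrane-arm subunit, at -0.29 ± 0.08 (adjusted p = 0.181). Ndufc1, an accessory subunit, went the other way in KO: it read 6.30, 6.20 and 6.30 on chow and 6.61, 6.61 and 6.47 on HFD, while HET arrays read 6.53, 6.74 and 6.43 on chow and 6.51, 6.55 and 6.50 on HFD. Its KO arrays on chow lay below those of all other groups. Of the 6 measured core subunits of the list fixed for complex I (Ndufv1, Ndufv2, Ndufs1, Ndufs3, Ndufs7 and Ndufs8), 6 were lower on HFD in HET and 6 in KO, with medians of -0.19 in each and 0 called.

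In complex II, which oxidizes succinate and is also an enzyme of the citrate cycle, 3 of 4 members were lower on HFD in each genotype, with medians of -0.11 in HET and -0.27 in KO. Sdhb, the iron-sulfur subunit, had the smallest p of all 78 members for diet in KO. It read 9.46 and 9.33 in WT, 9.22, 9.26 and 9.27 in HET and 9.46, 9.45 and 9.33 in KO on chow, and 9.22, 9.04 and 9.18 in HET and 8.96, 9.05 and 9.04 in KO on HFD. KO arrays were above HET arrays on chow and mostly below them on HFD, and the diet groups of KO did not overlap. The diet change was -0.40 ± 0.09 in KO (limma adjusted p = 0.106; unadjusted p = 0.000995) and -0.10 ± 0.09 in HET (adjusted p = 0.776), and the interaction was -0.30 ± 0.13 (adjusted p = 0.488). This member was called at an adjusted p of 0.0443 with array weights and 0.0460 with a trended, robust variance prior. Sdhd, a membrane anchor, was at -0.33 ± 0.12 in KO and -0.21 ± 0.12 in HET, and Sdha, the flavoprotein, at -0.20 ± 0.09 in KO and 0.02 ± 0.09 in HET. Sdhc, the other anchor, was at 0.14 ± 0.13 in KO and -0.13 ± 0.13 in HET.

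In complex III, which passes electrons from coenzyme Q to cytochrome c, 7 of 7 members lay below 0 in HET (median -0.15) and 5 of 7 in KO (median -0.15), and 0 passed an unadjusted p under 0.05 in either. Uqcrc2, a core protein, had the smallest p in HET (-0.16 ± 0.09, limma adjusted p = 0.582). In KO this was Uqcr11, a small subunit, at -0.27 ± 0.13 (adjusted p = 0.471). Uqcr11 read 7.07 and 7.13 in WT, 6.77, 6.78 and 7.22 in HET and 6.95, 7.08 and 7.02 in KO on chow, and 6.76, 6.80 and 6.75 in HET and 6.59, 6.82 and 6.84 in KO on HFD. The HFD arrays of KO lay below the KO chow arrays, but F1 and F2 of HET on chow were as low as HFD arrays. Uqcrfs1, the Rieske iron-sulfur protein, was at -0.17 ± 0.15 in HET and -0.29 ± 0.15 in KO.

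In complex IV, cytochrome c oxidase, 11 of 17 members lay below 0 in each genotype, with medians of -0.11 in HET and -0.08 in KO. Cox4i1, the ubiquitous form of subunit 4, read 9.89 and 9.66 in WT, 9.68, 9.60 and 9.92 in HET and 9.63, 9.66 and 9.66 in KO on chow, and 9.45, 9.26 and 9.53 in HET and 9.31, 9.35 and 9.53 in KO on HFD. All HFD arrays were below all chow arrays, with a diet change of -0.32 ± 0.12 in HET (limma adjusted p = 0.374) and -0.25 ± 0.12 in KO (adjusted p = 0.464). Cox5a, which sits beside subunit 4, read 8.86 and 8.82 in WT, 8.85, 8.84 and 8.85 in HET and 8.78, 8.80 and 8.76 in KO on chow, and 8.67, 8.49 and 8.73 in HET and 8.67, 8.53 and 8.55 in KO on HFD. Its chow arrays were close to each other, and the diets did not overlap. Cox7a2, the form of subunit 7a found in liver, had the smallest p of the complex for the averaged diet change (-0.34 ± 0.09, adjusted p = 0.153). It read 8.69 and 8.45 in WT, 8.33, 8.36 and 8.48 in HET and 8.24, 8.24 and 8.55 in KO on chow, and 8.24, 7.92 and 8.19 in HET and 8.0, 7.80 and 8.01 in KO on HFD, and 1 HET array on HFD reached the lowest chow arrays.

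Subunits of complex IV with tissue-restricted forms were dim, and their ubiquitous partners were not. All 8 genes of the isoform list, Cox4i2, Cox6a2, Cox6b2, Cox7a1, Cox7b2, Cox8b, Cox8c and the complex I relative Ndufa4l2, had a mean under 4, and 0 of 8 were called in any comparison. At an unadjusted p under 0.05 the list had 1 member higher in KO on HFD than on chow, Cox6a2, the form known from heart and skeletal muscle. Cox6a2 read 2.38, 2.29 and 2.14 in KO on chow and 2.55, 3.04 and 2.65 in KO on HFD, a change of 0.48 ± 0.13 (limma adjusted p = 0.176) with C3 highest, and 2.35, 2.57 and 2.59 in HET on chow and 2.53, 2.57 and 2.42 in HET on HFD. The 10 measured markers of muscle and fat all had a mean under 4 and a summed level of 5.19 to 5.38 in HET and 5.21 to 5.31 in KO on HFD, and 0 were called between the diets in KO; the part of other tissue in the Cox6a2 value was not tested. Of the partners, Cox4i1 and Cox7a2 are given above and Ndufa4 with complex I. Cox6a1, the form of subunit 6a found in liver, read 12.38 ± 0.09 (SD, n = 3) in KO on chow and 12.57 ± 0.01 in KO on HFD, and 12.51 ± 0.10 in HET on chow and 12.40 ± 0.04 in HET on HFD. On HFD it was higher in KO than in HET without overlap of the groups (0.17 ± 0.09, adjusted p = 0.333) but was not called, and Cox5b lay higher by as much, with groups that only just did not overlap. The partners Cox6b1, Cox7b and Cox8a had diet changes of -0.20 ± 0.13, -0.08 ± 0.19 and 0.04 ± 0.16 in KO and of 0.02 ± 0.13, 0.11 ± 0.19 and -0.11 ± 0.16 in HET.

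In complex V, the ATP synthase, 14 of 17 members lay below 0 in HET (median -0.11) and 15 of 17 in KO (median -0.17), and the complex held 6 of the 12 members lower at an unadjusted p under 0.05 in HET. Atp5e, the epsilon subunit of the rotor stalk, had the lowest averaged diet change of the 78. It read 8.05 and 8.12 in WT, 7.86, 7.80 and 8.63 in HET and 7.85, 7.85 and 7.85 in KO on chow, and 7.50, 7.72 and 7.76 in HET and 7.25, 7.60 and 7.18 in KO on HFD. All HFD arrays lay below all chow arrays, and P1 stood far above the other chow arrays. The change was -0.44 ± 0.19 in HET (limma adjusted p = 0.458) and -0.51 ± 0.19 in KO (adjusted p = 0.327), but a dimmer probe set of the same gene gave 0.03 in HET and -0.14 in KO, so the size rests on 1 probe set. Atp5pb, the b subunit of the peripheral stalk, read 10.13 and 10.07 in WT, 10.03, 10.06 and 10.10 in HET and 10.06, 10.08 and 10.08 in KO on chow, and 10.01, 9.86 and 9.94 in HET and 9.96, 9.83 and 9.90 in KO on HFD. Its diet difference was small (-0.13 ± 0.09 in HET and -0.17 ± 0.09 in KO) but without overlap.

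Atp5c1, the gamma subunit of the central stalk, had the smallest p of the 78 for the averaged diet change, at -0.37 ± 0.09 (limma adjusted p = 0.13). It read 5.11 and 4.93 in WT, 4.64, 4.85 and 4.87 in HET and 4.91, 4.75 and 4.82 in KO on chow, and 4.53, 4.06 and 4.44 in HET and 4.47, 4.64 and 4.50 in KO on HFD. Within each genotype the diets did not overlap, although F1 on chow and C3 on HFD read alike. Atp5k, the small e subunit of the membrane part, read 6.82, 7.09 and 7.29 in HET and 6.86, 6.88 and 6.96 in KO on chow and 6.53, 6.44 and 6.84 in HET and 6.74, 6.57 and 6.75 in KO on HFD, with the smallest p of all members in HET (-0.46 ± 0.14, adjusted p = 0.235). Of the 3 genes for subunit c, which forms the membrane ring and is the same mature protein from each gene, Atp5g3 was at -0.27 ± 0.09 in HET and -0.15 ± 0.09 in KO, Atp5g2 at -0.11 ± 0.13 and 0.16 ± 0.13, and the dim Atp5g1 at 0.04 ± 0.25 and -0.32 ± 0.25. Only Atp5g3 had diet groups without overlap in both genotypes. The dim Atp5j2 varied most: it read 2.59 and 3.33 in WT against 1.70, 1.71 and 1.89 in HET on chow, 2.02, 2.69 and 2.05 in KO on chow, 1.96, 2.39 and 1.95 in HET on HFD and 2.10, 1.61 and 1.39 in KO on HFD. Its change between HET and WT was -1.20 ± 0.27 (adjusted p = 0.725) and its interaction -0.89 ± 0.34 (adjusted p = 0.415), neither called.

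**Figure D3:**
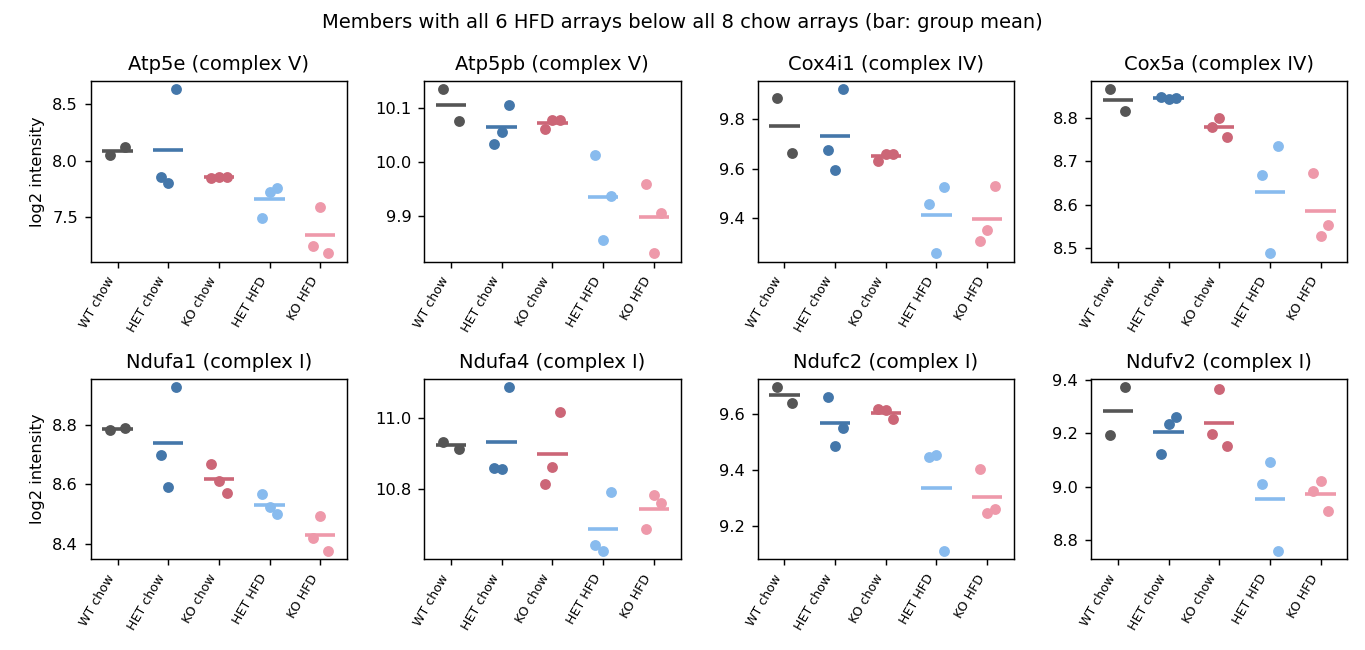
Log2 intensity of the 8 members whose 6 HFD arrays all lay below their 8 chow arrays, with 1 point for each liver, a bar at each group mean and colours for the 5 groups; each panel has its own axis, which does not start at 0. The diet gap is narrow in Ndufa1 and Ndufa4, and Atp5e has the widest spread.

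For diet, members whose groups did not overlap were mostly lower on HFD. In HET 17 of 78 members had all 3 HFD arrays below all 3 chow arrays and 2 above, where 6.83% and 6.75% of all genes did. In KO 33 of 78 lay below and 3 above, against 9.68% and 9.22%. All 6 HFD arrays lay below all 8 chow arrays in 8 members (Atp5e, Atp5pb, Cox4i1, Cox5a, Ndufa1, Ndufa4, Ndufc2 and Ndufv2) of the 63 genes for which this held, 0.284% of all genes, and above them in 0 members, where 0.126% of all genes were. Another 4 members, Atp5c1, Atp5g3, Cox7a2 and Ndufb5, were lower without overlap within each genotype. Between KO and HET the counts were near or below the background: 5 lower and 4 higher on chow (9.3% and 9.59% of all genes), and 7 lower and 2 higher on HFD (12.8% and 13.3%). Against WT, which has 2 arrays, 21 of 78 members were lower without overlap in KO and 5 higher (13.5% and 15.1% of all genes), and 8 were lower and 3 higher in HET (7.87% and 10%).

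The direction of the diet change was shared by the genotypes more than its size. The changes in HET and in KO rest on separate arrays. In 51 of 78 members (65.4%) both were below 0, where this held for 25.8% of all genes. Over the 78 members Pearson's r between the changes was 0.18 and Spearman's rho 0.25, and over the 66 members with a mean of at least 4 they were 0.40 and 0.40, against 0.098 and 0.041 over all genes. These are descriptions across genes, which share the arrays and are not independent replicates. Atp5k and Atp5c1 were further below 0 in HET, and Sdhb, Ndufb10 and Ndufa11 in KO, but 0 of 78 interactions were called. A dimmer probe set of Ndufa11 gave -0.34 in KO, near the -0.39 of the one used. In HET the dimmer one gave 0.16 and the one used -0.07. For KO against HET they gave -0.01 and -0.31 on HFD, and 0.50 and 0.02 on chow.

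**Figure D4:**
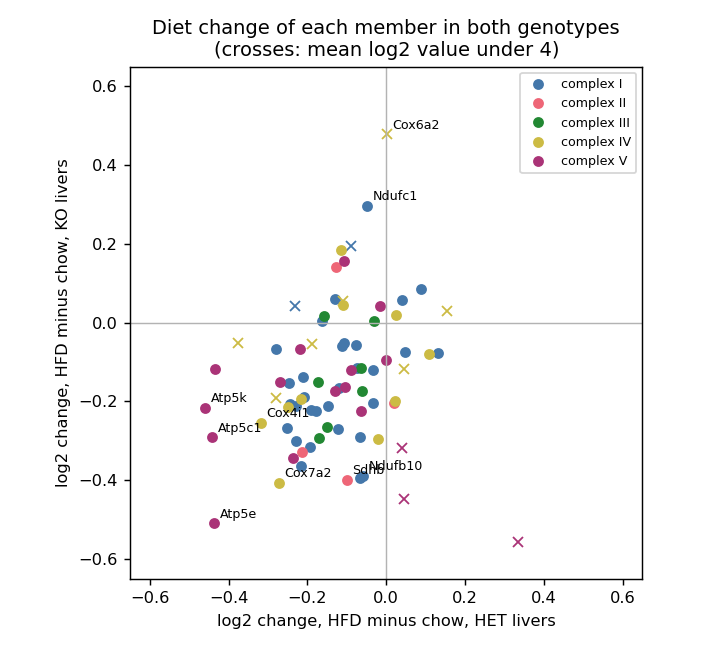
Log2 change of each member for HFD against chow in HET (horizontal) and in KO livers (vertical), coloured by complex, with crosses for the 12 dim members. Most points (51 of 78) lie in the lower left, while Ndufc1 and the dim Cox6a2 lie above 0 in KO.

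Other genes of protein synthesis and of mitochondria were counted for the averaged diet change, where 48.8% of all genes lay below 0 and 0.383% were called. Of 71 genes for mitochondrial ribosomal proteins, which translate the subunits encoded by mitochondrial DNA, 56 were below 0 for the averaged diet change, with a median of -0.10 and 0 called. Of 63 genes for cytosolic ribosomal proteins, a list added after the data were seen, 50 were below 0, with a median of -0.17, 23 lower at an unadjusted p under 0.05 and 0 called. The 10 measured subunits encoded by mitochondrial DNA (ND1 to ND6 with ND4L, CYTB, COX1 and COX3), also added, had a median of -0.02 with 0 called and 0 at an unadjusted p under 0.05. Taken per array as for the members, the levels of both ribosomal lists were lower in every HFD array than in every chow array. The highest HFD and lowest chow levels were -0.0457 and 0.000859 for the mitochondrial list and -0.0228 and -0.0184 for the cytosolic list. Levels of the mitochondrially encoded subunits overlapped between the diets. Of the 14 assembly factors of complex I, which build it and are not part of it, 14 were below 0 (median -0.12, 0 called). Other lists were less uniform. Below 0 were 22 of 28 assembly factors of complexes II to V (median -0.07), 10 of 12 coenzyme Q genes (-0.13), 10 of 13 citrate cycle genes (-0.06) and 9 of 14 carriers (-0.03). In KO alone, 12 of the 28 assembly factors of complexes II to V were below 0 (median 0.02).

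Marker lists of the liver cell types also differed in some of these comparisons. In bulk liver, fewer cells of a type and less RNA per cell cannot be told apart. For HFD against chow in KO, 0 of 12 hepatocyte markers were called (5 lower at an unadjusted p under 0.05) and 0 of 14 macrophage markers (7 higher). Of 12 stellate cell markers 1 was called higher (2 higher and 1 lower at an unadjusted p under 0.05). Called were 0 of 11 lymphocyte markers (3 higher), 0 of 11 endothelial markers (1 higher) and 0 of 6 cholangiocyte markers. Over all genes 0.316% were called, and 4.95% were lower and 6.12% higher at an unadjusted p under 0.05. The summed level of the hepatocyte list was 15.89 to 15.90 in KO on chow and 15.71 to 15.80 on HFD, and 15.95 to 15.98 in HET on chow and 15.91 to 15.98 on HFD. The macrophage list summed to 10.48 to 10.90 in KO on chow and 11.16 to 11.38 on HFD, and to 10.43 to 11.08 and 10.73 to 11.26 in HET. The lymphocyte list summed to 8.0 to 8.35 in KO on chow and 8.89 to 9.03 on HFD, and the stellate cell list to 11.32 to 11.44 and 11.48 to 11.61. Of the 11 lymphocyte markers, 8 had a mean under 4. In HET 0 of 14 macrophage markers were called and 1 was higher at an unadjusted p under 0.05, where 4.78% of all genes were. The median diet change of the macrophage list in HET was 0.26. The part of cell makeup in the diet values was not tested.

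Promoter sequence was looked at because many members lay lower together. RefSeq promoters (assembly GRCm38.p6) were matched for 64 of the 78 members, and the 250 bases before the listed start were searched on both strands for the letters CGCANGCGC (NRF1), CCGGAAGT (ETS family) and GCCATNTT (YY1). The NRF1 letters were found in 15 of 64 members (23.4%) and in 5.88% of 27025 genes with a promoter, the ETS letters in 3 (4.69%, against 3.23%) and the YY1 letters in 6 (9.38%, against 4.49%). By complex, the NRF1 letters were in 6 of 29 members of complex I, 2 of 3 of II, 0 of 4 of III, 1 of 13 of IV and 6 of 15 of V. The 15 members with NRF1 letters had a median averaged diet change of -0.14 and the 49 without them -0.16, so the shift was of like size in both. Of the 7 matched members whose HFD arrays all lay below the chow arrays, 0 held any of the 3 motifs in this window. This compares with 22 of 64 members (34.4%) and 12.6% of all genes with a promoter, and a set of 7 is too small to read more from. The 120 bases before the start are shown, 5′ to 3′ on the gene's own strand with motif letters in capitals, for 6 members that hold a motif in complexes I to V and for Atp5e, which had the lowest diet change and holds none. They are Ndufb10 (chr17:24724424-24724543, minus strand), Ndufb5 (chr3:32736943-32737062, plus strand), Sdha (chr13:74350241-74350360, minus strand), Uqcr11 (chr10:80406822-80406941, minus strand), Cox6a1 (chr5:115348959-115349078, minus strand), Atp5k (chr5:108434400-108434519, minus strand) and Atp5e (chr2:174464102-174464221, minus strand).
Ndufb10, NRF1: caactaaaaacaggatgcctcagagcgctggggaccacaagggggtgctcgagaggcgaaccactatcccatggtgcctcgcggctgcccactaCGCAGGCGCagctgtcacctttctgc
Ndufb5, YY1: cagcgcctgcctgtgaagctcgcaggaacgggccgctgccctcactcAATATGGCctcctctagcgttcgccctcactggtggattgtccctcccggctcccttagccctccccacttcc
Sdha, NRF1 at 3 places: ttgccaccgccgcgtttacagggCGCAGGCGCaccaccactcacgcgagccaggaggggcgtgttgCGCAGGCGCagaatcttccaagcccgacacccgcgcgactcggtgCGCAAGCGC
Uqcr11, ETS: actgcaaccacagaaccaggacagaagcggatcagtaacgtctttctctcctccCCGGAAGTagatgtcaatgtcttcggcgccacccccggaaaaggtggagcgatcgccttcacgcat
Cox6a1, NRF1: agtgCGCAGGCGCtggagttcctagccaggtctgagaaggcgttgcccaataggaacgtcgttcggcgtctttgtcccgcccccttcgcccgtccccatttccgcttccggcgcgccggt
Atp5k, NRF1 on both strands: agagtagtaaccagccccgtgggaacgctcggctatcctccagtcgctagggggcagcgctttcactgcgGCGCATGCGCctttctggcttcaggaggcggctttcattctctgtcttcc
Atp5e, no match: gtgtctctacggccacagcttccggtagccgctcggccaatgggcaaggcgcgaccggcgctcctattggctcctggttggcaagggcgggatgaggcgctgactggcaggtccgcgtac
A match is a string of letters and not a measured binding site.

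Between KO and HET the members had medians near those of all genes, and against WT they lay slightly lower. The median KO minus HET change of the members was -0.01 on chow, -0.05 on HFD and -0.02 averaged, where all genes had -0.01, -0.02 and -0.02. Against WT it was -0.05 for KO and -0.04 for HET, where all genes had 0.00 and 0.01. Below 0 lay 54 of 78 members (69.2%) for KO against WT, where 49.5% of all genes did, and 50 (64.1%) for HET against WT, where 46.8% did. For KO against HET these shares were 53.8% on chow and 62.8% on HFD, against 51.8% and 54.1%. Bright genes also leaned lower against WT. Of the 2540 with a mean of at least 8, 55.4% lay below 0 for KO (median -0.02) and 52.5% for HET (median -0.01). The median over the tested genes was 3.01 to 3.14 in the KO arrays and 2.9 to 2.99 in the HET arrays on chow, and 3.13 to 3.18 and 2.92 to 2.96 on HFD, while the median over all probe sets differed less and was lower in KO (2.21 to 2.23 against 2.26 to 2.3 on HFD). Centring each array on the median of the tested genes moved all genes between KO and HET by more than 0.1: their median became -0.13 on chow, -0.24 on HFD and -0.19 averaged, the members' -0.13, -0.26 and -0.19, a shift that this step gives to every gene alike. So centred, 8 members were called lower in KO on HFD (Atp5j, Cox7a2, Ndufa11, Ndufb10, Sdha, Sdhb, Sdhd and Uqcrh) and 18 averaged over diets, while calls over all genes went from 1221 higher and 456 lower to 915 and 3543 on HFD and from 1447 and 644 to 1059 and 4906 averaged. In either direction, 4458 of all 22180 genes were so called on HFD and 5965 averaged. The share of the 78 members called was below that of all genes in both. On the lower side alone it was below on HFD and alike averaged. Whether members are called lower in KO therefore depends on the scaling, as it does for genes in general. For Ndufa11, a dimmer probe set gave -0.01 for KO against HET on HFD before centring.

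Single members with the smallest p for genotype had modest changes. In KO against HET on HFD these were Ndufb10 (-0.32 ± 0.11, limma adjusted p = 0.113) in complex I, Sdhc (0.25 ± 0.13) in II, Uqcrh (-0.17 ± 0.11) in III, Cox6a1 in IV and Atp5j (-0.25 ± 0.10, adjusted p = 0.184) in V. Atp5j, the F6 subunit of the peripheral stalk, had the smallest p averaged over diets (-0.22 ± 0.07, adjusted p = 0.0799). It read 7.63, 7.63 and 7.64 in HET and 7.45, 7.41 and 7.45 in KO on chow, and 7.62, 7.52 and 7.45 in HET and 7.42, 7.07 and 7.33 in KO on HFD, with KO arrays below HET arrays on each diet. It was called at an adjusted p of 0.0383 when only genes with a mean of at least 4 were tested. Ndufa5, an accessory subunit of complex I, was at -0.22 ± 0.08 averaged, Uqcrh, the hinge protein of complex III, at -0.19 ± 0.08, Sdhd at -0.13 ± 0.09 and the dim Cox4i2 at -0.20 ± 0.11. On chow the smallest were Ndufc1 (-0.30 ± 0.10, adjusted p = 0.191), Sdhb (0.17 ± 0.09), Uqcrh (-0.20 ± 0.11), Cox4i2 (-0.29 ± 0.15) and Atp5mpl (-0.39 ± 0.14, adjusted p = 0.235), a small subunit of the ATP synthase membrane part. Against WT they were Ndufc1 (-0.36 ± 0.11), Sdhd (-0.24 ± 0.14), Uqcrq (-0.28 ± 0.19), Cox5b (-0.36 ± 0.16) and Atp5g3 (-0.32 ± 0.11, adjusted p = 0.223). Cox5b was also lower in HET than in WT on the brighter probe set (-0.50 ± 0.16, adjusted p = 0.999), at 8.51 and 8.41 in WT against 7.70, 8.18 and 8.03 in HET. The direction rests on that probe set: a dimmer one of the same gene gave 0.47 for HET against WT and 0.37 for KO against WT.

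Some genes around the chain were called between KO and HET on HFD, where 7.56% of all genes were. In lists of this size that share is about 1 gene or a few, so the counts below describe the named genes and nothing particular to their lists. Lists with 0 called were the assembly factors of complex I (0 of 14), electron entry and quinone reductases (0 of 10) and the mitochondrial unfolded protein response and mitophagy (0 of 12). Atpif1, the inhibitor protein of the ATP synthase, read 7.85 and 7.69 in WT, 7.83, 7.67 and 7.63 in HET and 7.96, 8.19 and 8.27 in KO on chow, and 7.80, 7.42 and 7.56 in HET and 8.56, 8.44 and 8.93 in KO on HFD. KO arrays were above HET arrays on each diet, and it rose by 1.05 ± 0.15 in KO against HET on HFD (limma adjusted p = 0.00101). Among 28 measured assembly factors of complexes II to V, 3 were called higher and 0 lower there: Cox19 (0.90 ± 0.15, adjusted p = 0.00353) and Cox17 (0.55 ± 0.11, adjusted p = 0.00989), which serve copper delivery to complex IV, and Cox18 (0.52 ± 0.12, adjusted p = 0.0207), which inserts a subunit into the membrane. Cox17 read 7.01, 7.11 and 7.20 in KO against 6.87, 6.75 and 6.75 in HET on chow and 7.03, 7.02 and 7.32 against 6.71, 6.50 and 6.52 on HFD, so the groups did not overlap on either diet. Of 14 carriers, 1 was called, Slc25a4, an ADP/ATP carrier known best from heart and muscle (0.77 ± 0.15, adjusted p = 0.00835). Slc25a4 read 5.96, 5.88 and 6.33 in KO on HFD and 5.42, 5.20 and 5.26 in HET on HFD, and 5.34, 5.65 and 5.35 and 5.12, 5.39 and 5.54 on chow. The ubiquitous carrier Slc25a5 was at 0.27 ± 0.09 (adjusted p = 0.0921) on HFD.

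Of 12 measured genes of coenzyme Q synthesis and function, 3 were called on HFD: Coq10a, a coenzyme Q binding protein, fell by 0.63 on the log2 scale (adjusted p = 0.00581), and Coq2 (0.49 ± 0.14, adjusted p = 0.0487) and Coq7 (0.38 ± 0.11, adjusted p = 0.0489), both enzymes of its synthesis, rose. Of 13 genes of the citrate cycle, which supplies NADH and succinate to the chain, Idh2 (0.64 ± 0.15, adjusted p = 0.0177) and Mdh2 (0.40 ± 0.10, adjusted p = 0.0345) rose and 0 fell. Of 71 mitochondrial ribosomal protein genes 1 was called, Mrpl42 (0.35 ± 0.10, adjusted p = 0.0429). Of 13 brown and beige fat genes Cidea, a lipid droplet protein, and Pparg, a regulator of fat storage, rose (6.90 ± 0.40 and 2.21 ± 0.44), while Ucp1, the uncoupling protein of brown fat, did not pass (0.05 ± 0.11). Without each single array in turn, the calls of Atpif1, Cox19, Cox17, Slc25a4, Coq10a, Cidea and Pparg held. Those of Cox18 (without B1, B2, C3 or C4, adjusted p = 0.0679 to 0.0701), Idh2 (B1, B2, C2 or C4, 0.0503 to 0.0701) and Mdh2 (A2, B1, B2, C2 or C4, 0.0624 to 0.148) were lost. Coq2 was lost without any array but P1 or A2 (0.0540 to 0.166), Coq7 without any but G1, N1 or P1 (0.0536 to 0.142) and Mrpl42 without any but P1 (0.050 to 0.141). The same 6 were lost with median centring, and Cox17 in a fit of the KO and HET arrays on HFD alone (adjusted p = 0.0546). When age in weeks entered as a linear term, 1 of the 14 named calls on HFD was kept, that of Cidea. Atpif1 was then at 0.69 (limma adjusted p = 0.510), Cox19 at 1.15 (0.260) and Cox17 at 0.32 (0.731). All mice of each KO group had the same age, so this term rested on small age differences within the WT and HET groups. It makes the genotype estimates imprecise, and the loss of calls does not show that age accounts for them. In the same comparison 4 of 12 hepatocyte markers were called lower, 4 of 14 macrophage markers higher and 1 lower, 4 of 12 stellate cell markers higher and 1 lower and 2 of 11 lymphocyte markers higher, and their part in these calls was not tested.

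Genes for regulators of mitochondrial biogenesis were mostly not called. Of 17 measured, 1 was called between KO and HET on HFD, Yy1, the transcription factor whose letters were searched above. Yy1 read 8.03 and 8.11 in WT, 7.81, 7.79 and 7.92 in HET and 7.84, 8.06 and 7.82 in KO on chow, and 8.0, 8.13 and 7.98 in HET and 7.22, 7.57 and 7.05 in KO on HFD. It was low only in the KO arrays on HFD, by -0.76 ± 0.13 against HET (limma adjusted p = 0.00369), and the call held without each single array. On the same comparison Ppargc1a, which encodes PGC-1alpha, was at -0.27 ± 0.19, Nrf1 at -0.06 ± 0.11, Gabpa at -0.26 ± 0.10 and Tfam, the mitochondrial DNA packaging factor, at -0.04 ± 0.14. For HFD against chow Tfam was at -0.39 ± 0.14 in HET and -0.32 ± 0.14 in KO and Ppargc1a at -0.20 ± 0.19 and -0.05 ± 0.19, with 0 of 17 called in either genotype.

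On chow fewer of these genes were called between KO and HET, where 1.92% of all genes were. Gpd2, the mitochondrial glycerol 3-phosphate dehydrogenase that passes electrons to coenzyme Q, rose by 0.66 ± 0.15 (limma adjusted p = 0.0465), Sco1, a copper chaperone of complex IV, fell by 0.48 (adjusted p = 0.0377), and the mitochondrial ribosomal gene Mrpl34 fell by 0.55 (adjusted p = 0.0188). The hormone gene Fgf21, induced by fasting and by mitochondrial stress, rose by 1.98 ± 0.45 (adjusted p = 0.0424) and Cidea by 5.76 ± 0.40. Of these 5, only the call of Cidea held without each single array: Gpd2 was lost without any array but B1 or B2 (adjusted p = 0.0515 to 0.164), Sco1 without any but P1, A2, B2 or C3 (0.0502 to 0.136), Fgf21 without any but H1, B1, B2 or C3 (0.0578 to 0.133) and Mrpl34 without F2, H2 or I1 (0.0709 to 0.0881). Averaged over diets, Acad9, which helps build complex I (0.54 ± 0.10), Cox16, an assembly factor of complex IV (-0.39 ± 0.08), and Suclg2 of the citrate cycle (0.35 ± 0.07) were called and held without each array. The call of Suclg2 was lost with median centring and also when the probe sets of a gene were averaged. With age as a term 0 of the 5 named calls on chow were kept, and 0 of 23 calls averaged over diets, not all of them printed here. As all mice of a KO group had the same age, this loss cannot tell age from genotype. For diet, Gpd2 (0.62 ± 0.11, adjusted p = 0.0332) and Fgf21 (2.06 ± 0.32, adjusted p = 0.0192) rose and Idh2 fell by 0.55 (adjusted p = 0.0437) averaged over genotypes. The diet call of Gpd2 was lost without F1, F2, H1, H2, A2, B1, C2, C3 or C4 (0.0529 to 0.108), that of Fgf21 without H1, H2, C2 or C4 (0.0501 to 0.0589) and that of Idh2 without any array but F2 or P1 (0.0578 to 0.122). All 3 of these diet calls were kept with age as a term, and that of Gpd2 was lost with median centring. HFD mice were 4.53 weeks older than chow mice in HET but 3.6 weeks younger in KO. These differences nearly cancel in the average, so an age term could move it little whatever age does.

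**Figure D5:**
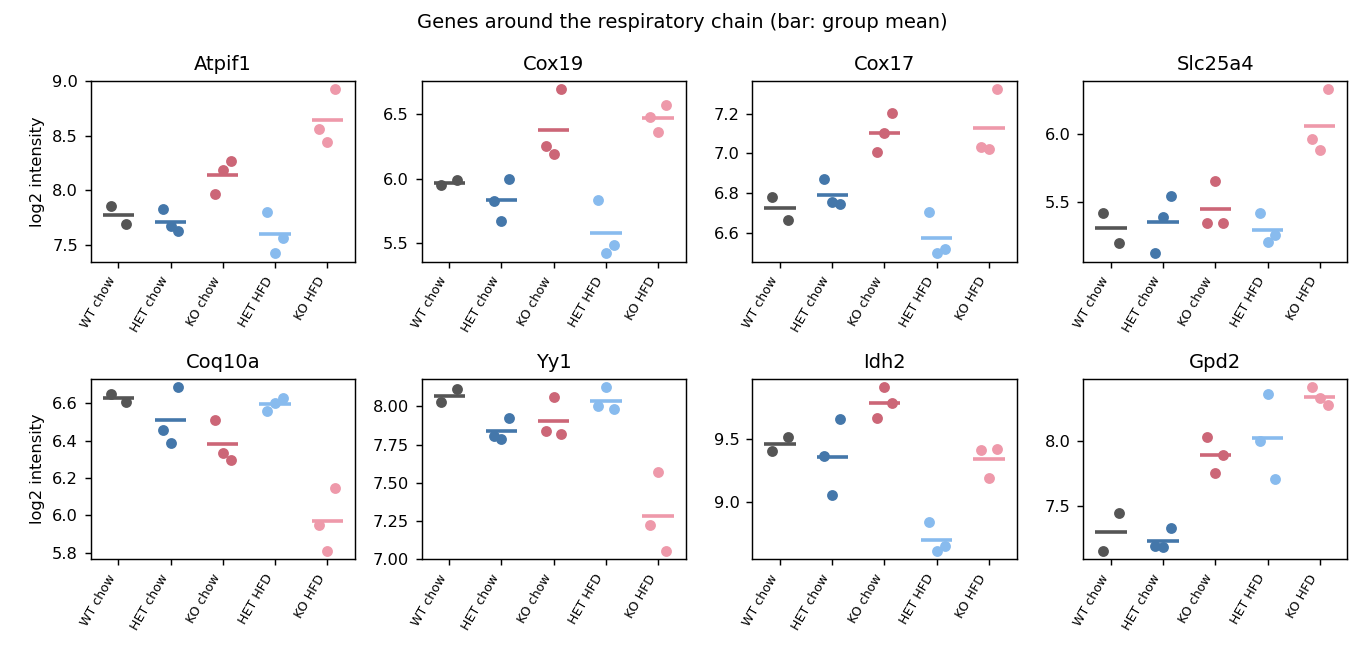
Log2 intensity of 8 genes around the respiratory chain in each liver (points), with a bar at each group mean and colours for the 5 groups; each panel has its own axis, which does not start at 0. Atpif1 and Cox17 lie higher in KO than in HET on each diet, Slc25a4 is high and Coq10a and Yy1 are low in KO on HFD, and Idh2 is lowest in HET on HFD.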

How the data were processed

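Liver RNA of 14 mice was measured on Affymetrix whole-transcript arrays, from 400 ng of total RNA per the labels. Per probe set, the deposited table holds log2 intensity; the submitters' processing notes name RMA, which normalizes quantiles of the probes, and limma. Array medians over all probe sets lay between 2.21 and 2.3, and median centring used the median over tested genes. Of 41345 probe sets, 23521 carried 1 symbol and were tested, the brightest for each of 22180 genes, with no filter on level. Symbols come from the platform annotation.

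Limma 3.58.1 in R 4.3.3 was fitted with 1 mean for each of 5 groups to all 14 arrays (9 residual and 3.83 prior degrees of freedom), with p-values adjusted over all genes. The procedure was tested on simulated data. The members, the 21 companion lists and the tests were chosen with earlier results of these data known. The averaged diet comparison, the median changes, the counts of groups without overlap, and the ribosomal and mitochondrially encoded lists were added after the values were seen. Named genes were taken from the member with the smallest p in each complex and comparison, the isoform, partner and subunit c genes, and up to 4 called genes of each companion list. Not all of these are printed. Left out, among others, were Ddit3 for KO against WT and Prodh2, Slc25a10, Slc25a20 and Lonp1 averaged over diets. So were several smallest-p members for HET against WT. Members whose groups did not overlap were named with their values in view. Alternatives were 10 other settings and leaving out each of 14 arrays.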

Additional observations from a re-analysis of the deposited data

How the results depend on the processing

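The counts of called members kept the value 0 when each array was left out in turn, from 0 to 0 in all 9 comparisons. The median member change then ranged from -0.0405 to 0.0234 for KO against HET on chow, -0.0871 to -0.0361 for KO against WT, -0.0868 to -0.0184 for HET against WT, -0.0638 to -0.0290 for KO against HET on HFD, -0.0442 to -0.00321 averaged over diets, -0.137 to -0.111 for diet in HET, -0.173 to -0.157 for diet in KO, -0.157 to -0.115 for diet averaged and -0.0643 to 0.0208 for the interaction. With median centring, 8 of 78 members were called for KO against HET on HFD and 18 averaged over diets. Of all 22180 genes 4458 and 5965 were then called, a larger share than of the members in both. The member medians became -0.133 (KO against HET on chow), -0.177 (KO against WT), -0.265 (KO against HET on HFD), -0.191 (averaged over diets), -0.250 (diet in KO), -0.122 (interaction) and -0.185 (diet averaged). Some settings called 1 member: 1 averaged over diets with a minimum mean of 4, 1 with a further quantile normalization (Ndufa5, -0.34) and 1 at an adjusted p under 0.10, and 1 for diet in KO with array weights and 1 with a trended, robust prior (Sdhb). With age as a term the medians were 0.00440 for KO against HET on HFD, -0.190 for diet in KO and 0.0138 for the interaction, which was -0.0505 with array weights. The age term, which rests on small age differences within the WT and HET groups, reversed some changes with no call. These were Coq7 on HFD (-0.0484) and, averaged over diets, Cox18 (-0.10), Coq10a (0.14), Sqstm1 (-1.18) and Yy1 (0.0902). The level of complex III was 0.129 in WT and -0.0979 in KO on HFD after a further quantile normalization; without dim members, complex IV was at 0.189 in WT and -0.0964 in KO on HFD, and complex V at -0.121 in KO on HFD. The cause of these moves was not tested. A random block for arrays that share a letter in their name (correlation 0.0506) changed no count of called members. No letter was shared between groups, so the block could not separate a letter effect from genotype and diet. Under it the calls of Gpd2 on chow and of Coq2, Coq7 and Mrpl42 on HFD were lost. For diet, those of Fgf21 in HET and of Idh2 averaged over genotypes were lost as well. No paired analysis was possible because the labels number no replicates across groups. Dim probe sets and 2 or 3 arrays a group limit what single members can show, and age cannot be separated from genotype.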
